A study of Mus musculus with 20 samples.

Results

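The comparison described here is that of WWP2-/- (KO) with WT primary renal myofibroblasts, both treated with TGFb1, measured by bulk RNA sequencing of poly-A RNA. The cells were grown from kidneys of C57BL/6J mice, by outgrowth from minced tissue pieces, and there were 5 libraries of each genotype, among 20 libraries in the whole series. The other 10 libraries are untreated cells of the same genotypes. They are used below to set the genotype difference without TGFb1 beside the one with it. They also entered the count filter and the single fit of all 20 libraries. The estimate of spread behind each p-value of the treated comparison thus draws on them too. The labels give neither the dose nor the duration of TGFb1, nor the sex of the mice, and they do not state whether the 5 replicates of a group came from separate animals, so the p-values measure only the spread between these libraries. The knockout is a germline deletion, present in each cell type of the kidney from which the cultures were grown. Which genes were tested was set by a minimum count over all 20 libraries, without regard to group. A gene could therefore pass through the libraries of a single genotype, as Tnmd did, with at most 3 counts in any WWP2-/- library. The treated libraries held 47520759 to 61450631 counts each. Of 51826 genes in the table, 20407 had at least 5 counts in at least 5 of the 20 libraries and were tested, and 19967 of these lie outside the lists of ECM core and cell cycle genes, which are counted but not described by gene here.

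WWP2 is a ubiquitin ligase of the NEDD4 family, whose members attach ubiquitin to substrates that they recognise through WW domains, among them SMAD proteins and transcription factors. Myofibroblasts are contractile stromal cells that lay down the matrix of a scar. TGFb1 drives their formation through SMAD proteins, and in the kidney they arise mainly from resident fibroblasts and pericytes.

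Levels are given as CPM (counts scaled by the size of the library) after TMM normalization, in the order of replicates 1 to 5 of each group. A gene is called where edgeR's quasi-likelihood test gave an adjusted p under 0.05 over all 20407 genes. Log2 fold changes are WWP2-/- minus WT, with their SE, so that a negative value means a lower level in WWP2-/- libraries. The groups are said not to overlap where the lowest library of one genotype lay above the highest of the other. Where only ranges are given for both genotypes, that of the WWP2-/- libraries stands first. Of the 188 genes named, the annotated spans of 40 overlap that of another tested gene, 29 of them on the opposite strand, as Htr2b with Psmd1 and Jun with Junos. Whether the counting used strand is not given in the sources used here, so reads of such partners cannot be told apart.

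The targeted transcript itself, Wwp2 (ENSMUSG00000031930, chr8:107436365-107558595 on GRCm38), was at 21.1, 19.9, 17.0, 17.5 and 19.6 CPM in the WWP2-/- libraries and 50.8, 52.0, 58.4, 53.5 and 52.9 CPM in the WT libraries. No library of one genotype reached the range of the other (log2 fold change −1.49, SE 0.084, adjusted p = 1.05e-08). Wwp2 RNA was thus still counted in the knockout, and the exons that gave these reads cannot be told from counts per gene.

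The 10 treated libraries fell into 2 kinds that do not follow genotype. In WWP2-/- replicate 1 and in WT replicates 1, 2, 4 and 5, Xist (made by the inactive X chromosome and so found in female cells) was between 135 and 254 CPM, and in WWP2-/- replicates 2 to 5 and WT replicate 3 it was at most 0.120 CPM. Transcripts of the Y chromosome were present in the latter libraries, and also in WT replicate 1, where Ddx3y was at 38.5 CPM. The same libraries differed in some fibroblast genes. Pdgfra was at 84.6 to 179 CPM in the libraries with Xist and at most 0.948 CPM in those without it, and Lum was at 5.86 to 41.6 CPM against at most 0.101 CPM. Dcn, Thy1 and Postn split likewise, whereas Col1a1, Col1a2, Col3a1, Vim and S100a4 did not. In WWP2-/- replicate 1, which has Xist, Col1a1 was at 889 CPM and Vim at 1113 CPM, the lowest of the 10 libraries. Twist1, a mesenchymal transcription factor, was at 43.7 to 113 CPM against at most 2.93 CPM. The first principal component of the 500 most variable genes, with 70.3% of their variance, separated these kinds and not the genotypes. WWP2-/- replicate 1 stood apart in a second way, with 50.4 CPM of Acta2, the smooth muscle actin of myofibroblasts, against 1328 to 3430 CPM in the other 9 libraries. Because 4 of 5 WT but only 1 of 5 WWP2-/- libraries had Xist, genotype is partly confounded with the kind of library. A fit that adds the level of Xist as a covariate (in log2 CPM) and the difference within each kind are therefore set beside the results below. Of the 188 genes named, 183 were called, and 68 in the fit with Xist. Within the libraries with Xist this sets 1 WWP2-/- against 4 WT libraries, and within those without Xist 4 WWP2-/- against 1 WT library, so that the lone library is assumed to vary like the others.

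**Figure D1:**
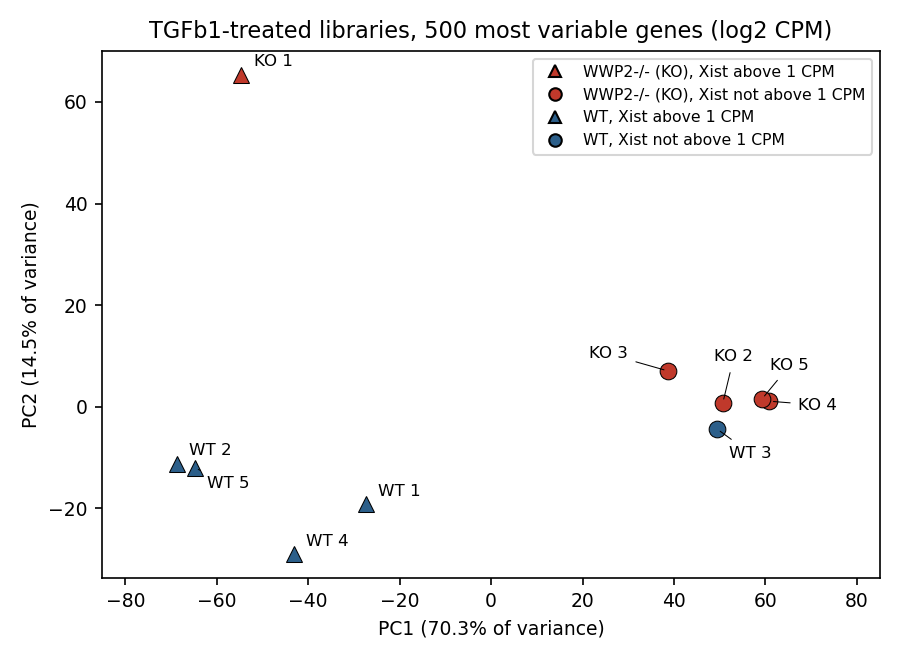
The 10 treated libraries on the first 2 principal components (horizontal, PC1, and vertical, PC2, in log2 CPM units, with the share of variance in per cent) of the 500 most variable genes, 1 point per library. Triangles have Xist above 1 CPM and circles do not; WT replicate 3 lies among the 4 WWP2-/- libraries without Xist, and WWP2-/- replicate 1 stands alone at the top.

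Markers of other cell types also moved with the kinds of library and partly with genotype. The summed level of 18 macrophage markers was 112 to 4432 CPM in WWP2-/- and 92.9 to 558 CPM in WT libraries, and that of 18 tubular markers was 25.9 to 1787 CPM against 73.0 to 503 CPM. The defining macrophage gene Lyz2 (lysozyme) was at 687, 233, 2892 and 2060 CPM in WWP2-/- replicates 2 to 5 and at 35.7 CPM in replicate 1, and in WT libraries at 36.3 to 321 CPM. All 18 macrophage and all 15 tested tubular markers had positive log2 fold changes (medians 2.56 and 1.80), and none was called by edgeR, with 17 and 2 at an unadjusted p under 0.05, whereas DESeq2 called 14 and 2 higher. The sums for fibroblast markers were 5435 to 12940 CPM in WWP2-/- and 10276 to 35307 CPM in WT libraries, with 9 of 10 markers negative and 3 called lower. Endothelial markers summed to 26.2 to 228 against 76.4 to 274 CPM (11 of 14 tested positive, 2 called lower), podocyte markers to 65.5 to 309 against 281 to 457 CPM, and pericyte and mesangial markers to 335 to 1157 against 754 to 915 CPM. Sums for glia and neurons (58.1 to 85.9 against 65.2 to 86.6 CPM), skeletal muscle (2.28 to 16.6 against 2.55 to 4.83 CPM), adipocytes (2.06 to 14.4 against 2.75 to 21.7 CPM) and erythroid cells (at most 0.363 CPM) were low or overlapped. In bulk libraries, fewer cells of a type and less RNA per cell cannot be told apart, and the part of these cells in the differences below was not tested.

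Between WWP2-/- and WT libraries with TGFb1, 1238 of the 20407 genes tested (6.07%) were called. WWP2-/- libraries had the higher level in 429 of them (2.10%) and the lower level in 809 (3.96%). Outside the ECM core and cell cycle lists, 425 were higher and 752 lower, that is 5.89% of 19967 genes, and 126 of them carry only clone names. On those lists, 61 of 440 genes (13.9%) were called. A full separation of the genotypes was found for 1157 tested genes (5.67%), called or not, and for 275 of the genes called higher and 413 of those called lower. A log2 fold change of at least 1 in size was reached by 265 of the genes called higher and by 555 of those called lower, with medians of 1.31 and 1.53 in size. The median over all tested genes was 0.05, with 44.8% negative. Of 673 tested genes on the X chromosome, 37 (5.50%) were called.

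Single libraries changed the number called. Leaving out WT replicate 2 gave 464 genes, WWP2-/- replicate 1 gave 2036, WT replicate 3 gave 2702, and the last 2 together gave 4291. Without those 2, each WWP2-/- library left lacked Xist and each WT library left had it. Genotype and kind of library then coincide, so the 4291 calls cannot be assigned to either. Leaving out any 1 of WT replicates 1, 4 and 5 or of WWP2-/- replicates 2, 4 and 5 gave 493 to 715. Of the named genes, 101 were called without WT replicate 2, 106 to 126 without any 1 of those 6 libraries, 158 without WWP2-/- replicate 3, 167 without its replicate 1 and 184 without WT replicate 3. With Xist as a covariate, 544 genes (2.67%) were called, and the balance turned to 314 higher and 230 lower; 311 of the 1238 were among them. Of the genes called higher, 418 of 429 had a positive difference within both kinds of library, and of the genes called lower, 666 of 809 a negative one, beside 55.4% of all tested genes with 1 sign in both. The called genes were chosen from these same libraries, so part of this agreement follows from the choice. Across all tested genes the differences within the 2 kinds had a Pearson correlation of 0.099 and across the called genes of 0.484, which describes these libraries, as genes are not independent replicates.

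A core of 206 genes (1.01% of those tested) was called in each of the fits compared, namely the fit of all libraries, that with Xist as a covariate, DESeq2, and the 10 fits that each left out 1 treated library. By this definition each named gene outside the core missed the threshold in at least 1 of these fits. The core held 80 genes higher and 126 lower in WWP2-/- libraries, and 80 and 117 of them lie outside the ECM core and cell cycle lists. The groups did not overlap for 76 of the 80 and 119 of the 126. All 80 were higher within both kinds of library and 125 of the 126 lower, the exception being Lhx8, which had no count in any of the 5 libraries without Xist. The core was chosen from these same libraries, so its counts of separation and of shared sign largely follow from that choice and are not support for it.

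**Figure D2:**
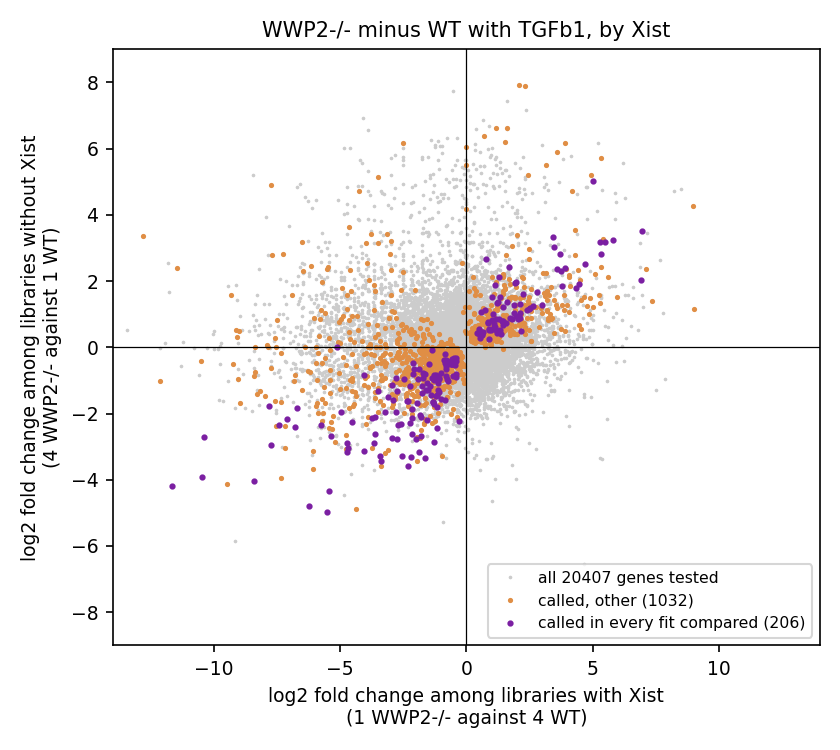
Log2 fold change of each of the 20407 genes among the libraries with Xist (horizontal axis, 1 WWP2-/- against 4 WT) and among those without (vertical axis, 4 WWP2-/- against 1 WT); 1 gene lies outside the axes. The grey cloud of all genes shows little relation between the axes, and the 206 genes called in each fit compared (purple) lie in the upper right or the lower left, apart from 1 on the horizontal line.

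Among the genes of this core that were higher in WWP2-/- libraries, several with large differences encode secreted or surface proteins. Il11 (interleukin 11, a cytokine of the IL-6 family that activates fibroblasts) was at 45, 99.7, 409, 13.6 and 16.9 CPM in the WWP2-/- libraries and 6.78, 3.35, 13.5, 3.31 and 3.37 CPM in the WT libraries. Replicate 3 was far the highest, and the groups touched without overlapping, at 13.6 and 13.5 CPM (log2 fold change 4.27, SE 0.92, adjusted p = 0.0141). Without that library the log2 fold change was 2.84. Mmp9 (gelatinase B, a secreted protease) was at 48.3, 1.88, 32.4, 4.11 and 2.49 CPM in the WWP2-/- libraries and 0.464, 0.641, 0.898, 0.202 and 0.245 CPM in the WT libraries, so that the highest WT library lay below the lowest WWP2-/- library (log2 fold change 5.18, SE 1.2, adjusted p = 0.0158). Htr2b, a serotonin receptor coupled to contraction and fibrosis, was at 15, 5.90, 28.8, 7.15 and 4.60 CPM in the WWP2-/- libraries and 0.907, 0.381, 3.11, 0.545 and 0.837 CPM in the WT libraries (log2 fold change 3.41, SE 0.69, adjusted p = 0.0121). It was highest in WWP2-/- replicate 3 and, among WT libraries, in replicate 3. Vgf, which encodes a precursor of neuroendocrine peptides, was at 2.78, 27.6, 12.3, 34.1 and 29.2 CPM in the WWP2-/- libraries and 2.32, 1.02, 4.05, 1.54 and 1.59 CPM in the WT libraries. Replicate 1 of WWP2-/- lay within the WT range, and the other 4 libraries lay above it (log2 fold change 3.33, SE 0.69, adjusted p = 0.0133).

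Metabolic and signalling genes of the core had smaller differences with less spread. Plin2 (perilipin 2, which coats lipid droplets) was at 455, 310, 396, 574 and 440 CPM in the WWP2-/- libraries and 145, 121, 237, 136 and 121 CPM in the WT libraries (log2 fold change 1.51, SE 0.32, adjusted p = 0.0137). Jun, a subunit of the immediate early factor AP-1, was at 124, 134, 116, 152 and 147 CPM in the WWP2-/- libraries and 73.2, 59.5, 78.3, 44.6 and 69.8 CPM in the WT libraries (log2 fold change 1.05, SE 0.22, adjusted p = 0.0129). In neither gene did the groups overlap, and the WT library without Xist was the highest of its group in both. Nr4a2, an orphan nuclear receptor of the immediate early class, was at 18.2, 10.4, 9.62, 8.30 and 9.33 CPM in the WWP2-/- libraries and 4.80, 5.41, 4.87, 3.86 and 4.47 CPM in the WT libraries (log2 fold change 1.25, SE 0.22, adjusted p = 0.00783). Gsr, the enzyme that regenerates reduced glutathione, was at 118, 66.9, 79.6, 94.0 and 86.9 CPM in the WWP2-/- libraries and 45.2, 44.2, 47.8, 40.7 and 42.1 CPM in the WT libraries, with the WT libraries within a narrow band (log2 fold change 1.02, SE 0.21, adjusted p = 0.0133). Hk2 (hexokinase 2, the first step of glycolysis) was at 91.4 to 160 CPM in WWP2-/- and 56.6 to 81.0 CPM in WT (log2 fold change 0.81, SE 0.18, adjusted p = 0.0162). Acsl4, which activates long polyunsaturated fatty acids, was at 98.3 to 238 CPM in WWP2-/- and 61.0 to 90.3 CPM in WT, Bcat1, the cytosolic transaminase of branched-chain amino acids, at 138 to 294 CPM in WWP2-/- and 53.0 to 129 CPM in WT, and Capg, an actin-capping protein, at 226 to 326 CPM in WWP2-/- and 130 to 188 CPM in WT. Their log2 fold changes were 1.02 (SE 0.22), 1.56 (SE 0.33) and 0.87 (SE 0.18), with adjusted p of 0.0138, 0.0133 and 0.0133 from edgeR.

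Other genes of the core had low levels or wide spreads in WWP2-/- libraries. Asb5, which encodes an adaptor of a ubiquitin ligase complex known from muscle, was at 38.9, 2.41, 6.34, 5.01 and 3.80 CPM in the WWP2-/- libraries and 0.464, 0.280, 1.08, 0.182 and 0.368 CPM in the WT libraries, and its log2 fold change of 4.57 was 3.20 without WWP2-/- replicate 1. Mcpt8, a mast cell and basophil protease, was at 0.696 to 10.7 CPM in WWP2-/- and 0.180 to 0.327 CPM in WT (log2 fold change 3.76, and 2.69 without WWP2-/- replicate 1), and Cmtm8 at 1.30 to 5.75 CPM in WWP2-/- and 0.202 to 0.918 CPM in WT (2.80). Akap6, an anchoring protein for protein kinase A, was at 0.992 to 2.28 CPM in WWP2-/- and 0.286 to 0.665 CPM in WT (1.54). At the lower limit of detection, Hrasls was at 0.166 to 0.928 CPM in WWP2-/- and 0 to 0.0801 CPM in WT, and had 9 counts in all WT libraries together. Naip1, which has close copies in the genome between which reads could be split, had 50 counts in WWP2-/- and 3 in WT libraries, a ratio per library size of 15.5, with an exact 95% counting interval of 5.01 to 77.8. Tspan11 had 40 and 2 counts, a ratio of 18.6, with an exact 95% counting interval of 4.83 to 159. Vis1 had 20 counts in WWP2-/- and none in WT libraries, which makes it at least 6.21-fold higher against a floor of 3 counts over the group. These intervals cover counting error only.

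**Figure D3:**
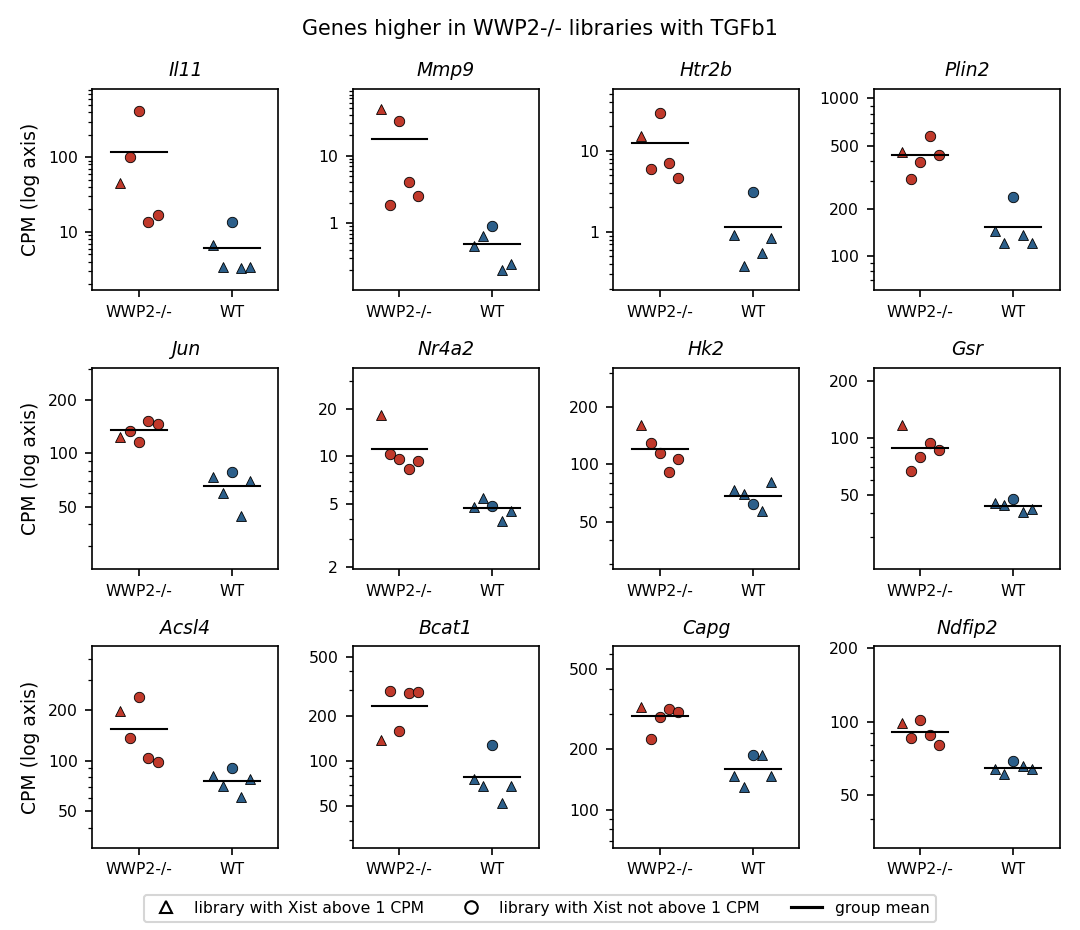
CPM (vertical axis, log scale) of 12 genes called higher in WWP2-/- libraries in each fit compared, 1 point per library, with red for WWP2-/- and blue for WT. Bars are group means, triangles have Xist above 1 CPM; Il11 and Mmp9 spread over more than 1 power of 10 in WWP2-/- libraries, while Jun, Gsr and Ndfip2 form tight, separate groups.

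Among the genes of the core that were lower in WWP2-/- libraries were Islr, Smad9, Chrd and Igfbp6. Islr, which encodes a secreted leucine-rich protein of stromal cells, was at 9.92, 6.97, 2.38, 4.28 and 6.07 CPM in the WWP2-/- libraries and 88.8, 127, 53.4, 91.7 and 110 CPM in the WT libraries. The WT library without Xist was the lowest of its group and still above each WWP2-/- library (log2 fold change −3.99, SE 0.63, adjusted p = 0.00581), though the annotated span of Islr overlaps that of Islr2. Smad9, a transducer of BMP signals, was at 2.66, 3.29, 1.43, 2.10 and 2.37 CPM in the WWP2-/- libraries and 13.6, 11.3, 27.5, 18.2 and 9.60 CPM in the WT libraries, and here the WT library without Xist was the highest (log2 fold change −2.76, SE 0.47, adjusted p = 0.00639). Chrd, the BMP antagonist chordin, was at 6.96, 4.49, 4.88, 4.60 and 6.23 CPM in the WWP2-/- libraries and 20.7, 25.2, 11.4, 23.8 and 24.4 CPM in the WT libraries (log2 fold change −1.96, SE 0.35, adjusted p = 0.00732). Igfbp6, a binding protein with preference for IGF2, was at 41.5, 12.6, 21.8, 14.8 and 16.3 CPM in the WWP2-/- libraries and 374, 502, 100, 613 and 530 CPM in the WT libraries. All WWP2-/- libraries lay below 42 CPM, and the WT library without Xist was the lowest of its group at 100 CPM (log2 fold change −4.31, SE 0.70, adjusted p = 0.00612).

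The promoters of 2 genes of each direction are shown, to set letters beside levels for members of the core, and were chosen after their values were seen. Twist1, whose level separated the kinds of library, encodes a factor of the basic helix-loop-helix class, and such factors bind the E-box. The sequences are the 250 bases before the start given by RefSeq on GRCm38.p6, read 5′ to 3′ on the strand of the gene, with the E-box letters CANNTG (the same on both strands) in capitals. The genes are ENSMUSG00000004371 (Il11, chr7:4772373-4782859), ENSMUSG00000028494 (Plin2, chr4:86648386-86670060), ENSMUSG00000037206 (Islr, chr9:58156268-58204306) and ENSMUSG00000027796 (Smad9, chr3:54755582-54801257), and the windows lie at chr7:4782858-4783107 (Il11, minus strand), chr4:86670060-86670309 (Plin2, minus strand), chr9:58158555-58158804 (Islr, minus strand) and chr3:54755332-54755581 (Smad9, plus strand).
Il11: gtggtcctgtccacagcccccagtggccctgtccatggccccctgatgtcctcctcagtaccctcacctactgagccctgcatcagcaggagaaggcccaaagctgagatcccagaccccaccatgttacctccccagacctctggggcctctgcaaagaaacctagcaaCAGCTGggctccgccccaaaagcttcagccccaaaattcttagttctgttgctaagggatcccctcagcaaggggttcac
Plin2: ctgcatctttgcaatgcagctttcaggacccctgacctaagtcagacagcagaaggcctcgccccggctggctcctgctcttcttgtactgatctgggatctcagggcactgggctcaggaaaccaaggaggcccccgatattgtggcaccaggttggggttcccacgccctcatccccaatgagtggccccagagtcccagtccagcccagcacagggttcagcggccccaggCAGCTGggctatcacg
Islr: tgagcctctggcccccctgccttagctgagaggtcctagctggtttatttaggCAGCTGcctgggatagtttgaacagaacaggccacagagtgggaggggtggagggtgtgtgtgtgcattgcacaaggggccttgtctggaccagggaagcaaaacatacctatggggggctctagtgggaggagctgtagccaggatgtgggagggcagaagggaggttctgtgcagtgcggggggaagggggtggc
Smad9: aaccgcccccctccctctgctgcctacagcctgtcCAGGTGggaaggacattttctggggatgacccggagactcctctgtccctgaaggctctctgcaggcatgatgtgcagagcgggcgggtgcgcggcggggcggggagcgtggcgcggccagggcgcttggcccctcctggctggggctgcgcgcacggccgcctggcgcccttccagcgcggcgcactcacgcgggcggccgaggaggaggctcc
Each of the 4 windows held 1 E-box, and that of Islr lies inside the longer span which the GENCODE annotation gives for the gene. Among RefSeq promoters of the same length, CANNTG was found in 66.1% of all 27025, in 58.6% of the 13085 belonging to tested genes, in 64.3% of 305 for genes called higher and in 59.1% of 589 for genes called lower. In the core it was in 71.4% of 56 higher and 54.2% of 96 lower genes. A match is a description of these letters, not of a bound site.

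Receptors that act on contraction were among the core genes that were lower. Tbxa2r, the thromboxane receptor, was at 1.89, 0.682, 2.56, 0.611 and 0.873 CPM in the WWP2-/- libraries and 29.5, 45.9, 9.64, 78.3 and 41.6 CPM in the WT libraries (log2 fold change −4.96, SE 0.80, adjusted p = 0.00605). Adra1d and Adra1b, alpha-1 adrenoceptors, were separated by a wide gap. Adra1d was at 1.35, 11.2, 8.29, 6.52 and 7.68 CPM in the WWP2-/- libraries and 49.6, 51.8, 54.2, 61.3 and 56.3 CPM in the WT libraries (log2 fold change −2.96, SE 0.65, adjusted p = 0.0145), and the WT library without Xist was in the middle of its group. Adra1b was at 0.741, 1.90, 1.33, 1.69 and 1.60 CPM in the WWP2-/- libraries and 14.1, 17.5, 12.2, 35.5 and 12.1 CPM in the WT libraries (log2 fold change −3.65, SE 0.67, adjusted p = 0.00840). Within the libraries with Xist their log2 fold changes were −5.34 and −4.74, and within those without it −2.69 and −2.90.

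Some transcription factors were also among the lower genes of the core, and the counts for their whole lists are given with the Hox list. Foxd1, the factor that marks the embryonic renal stroma, was at 9.75, 12.8, 6.90, 5.41 and 6.05 CPM in the WWP2-/- libraries and 43.7, 27.6, 78.8, 25.5 and 24.9 CPM in the WT libraries (log2 fold change −2.29, SE 0.38, adjusted p = 0.00614). Its highest level was in the WT library without Xist, and the genotypes did not overlap. Gata2 was at 16.8 to 36.8 CPM in WWP2-/- and 39.1 to 98.1 CPM in WT (log2 fold change −1.21, SE 0.26, adjusted p = 0.0142). Of the HoxC cluster, Hoxc8 was at 28.8, 25.1, 27.9, 20.5 and 18.8 CPM in the WWP2-/- libraries and 92.9, 90.6, 94.1, 128 and 98.8 CPM in the WT libraries (log2 fold change −2.06, SE 0.31, adjusted p = 0.00527), with WT replicate 4 the highest and the WT library without Xist within the range of the other 4. Hoxc9 was at 24.1 to 37.0 CPM in WWP2-/- and 54.9 to 76.8 CPM in WT, and Hoxc5 at 2.50 to 5.29 CPM in WWP2-/- and 8.66 to 11.3 CPM in WT (log2 fold changes −1.12, SE 0.20, and −1.27, SE 0.26). Tcf23, a helix-loop-helix factor, was at 0.0168 to 0.40 CPM in WWP2-/- and 0.653 to 6.25 CPM in WT (log2 fold change −3.69, SE 0.79, adjusted p = 0.0138), and Lhx8, a LIM homeobox factor, had 3 counts in all WWP2-/- libraries together against 362 in WT, a ratio of 130, with an exact 95% counting interval of 44.0 to 631, with none in WT replicate 3. The annotated span of Hoxc5 contains those of Hoxc6, Hoxc8 and Hoxc9, so that reads shared between them could be split or lost in counting.

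Further genes of this kind were Sema3b, a secreted axon guidance protein, at 36.1, 39.6, 27.7, 39.1 and 43.5 CPM in the WWP2-/- libraries and 71.2, 76.3, 73.1, 81.1 and 80.6 CPM in the WT libraries (log2 fold change −1.04, SE 0.16, adjusted p = 0.00527), and Smo, the transducer of hedgehog signals, at 99.7 to 117 CPM in WWP2-/- and 132 to 167 CPM in WT, a small difference (log2 fold change −0.50, SE 0.098, adjusted p = 0.0118) in which the groups did not overlap. Fam180a was at 0.0842 to 0.698 CPM in WWP2-/- and 3.79 to 23.9 CPM in WT (log2 fold change −5.25, SE 0.87, adjusted p = 0.00614). Gdpd2, a glycerophosphodiesterase of bone and stromal cells, was at 0.253, 0.200, 0.0202, 0.216 and 0.178 CPM in the WWP2-/- libraries and 23.4, 48.9, 0.838, 7.84 and 32.0 CPM in the WT libraries, with WT replicate 3 close to the WWP2-/- libraries (log2 fold change −7.00, SE 1.0, adjusted p = 0.00527). Olfml3, a secreted protein that binds BMP4, was at 6.01 to 15.6 CPM in WWP2-/- and 12.5 to 345 CPM in WT, where the highest WWP2-/- library (15.6 CPM) lay above WT replicate 3 (12.5 CPM), so that the groups overlapped (log2 fold change −4.59, SE 0.76, adjusted p = 0.00614). Tnmd (tenomodulin, a tendon membrane protein) had 1 count in all WWP2-/- libraries together against 569 in WT, a ratio of 611, with an exact 95% counting interval of 109 to 24180, and 2 of the latter lay in WT replicate 3. Slc6a7, a proline transporter, had 3 counts against 120, a ratio of 43.0, with an exact 95% counting interval of 14.4 to 211.

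**Figure D4:**
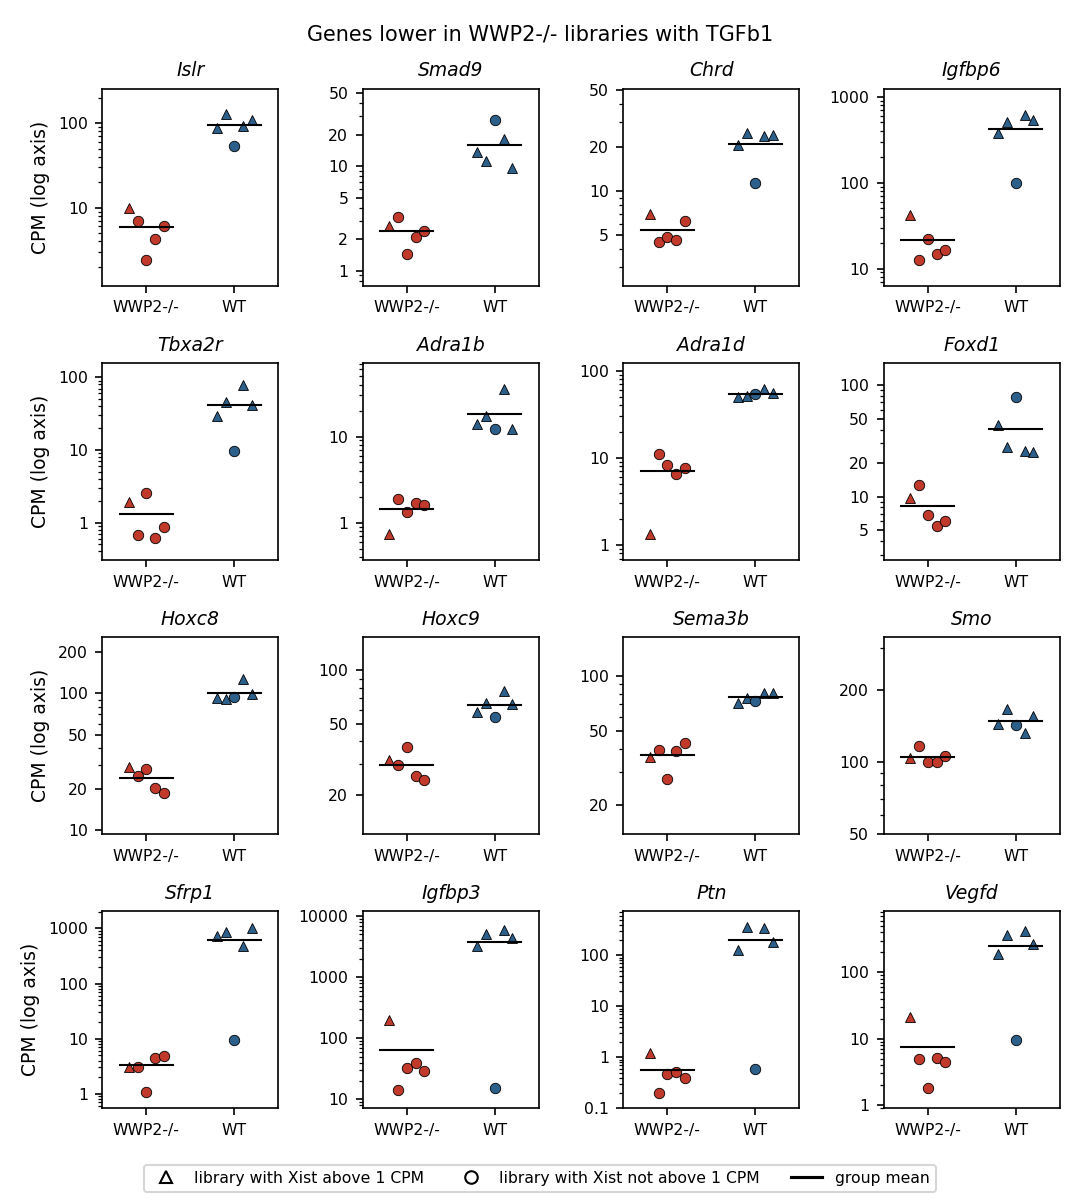
CPM (vertical axis, log scale) of 16 genes called lower in WWP2-/- libraries, 1 point per library, with red for WWP2-/- and blue for WT. Bars are group means, triangles have Xist above 1 CPM. In the upper 3 rows the WT library without Xist (blue circle) stays above each WWP2-/- library, and in the lowest row it lies at or near their level.

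The functional lists, of which 40 with 1724 tested genes were compared, held 181 called genes (10.5%), 43 higher and 138 lower, beside 6.07% of all tested genes, of which 2.10% were higher and 3.96% lower. The share called was above 6.07% in 31 of the 40 lists. The lists were chosen with earlier results of these data known, so part of this excess may follow from that choice. The lists are described by these counts and by their median log2 fold change beside 0.05 over all tested genes. No list was tested as a set. The largest numbers of called genes were among extracellular proteases and their inhibitors (1 higher and 13 lower of 65, median −0.66), the Wnt ligands, receptors and targets (1 and 11 of 46, −0.18), receptors for vasoactive agents and hormones (4 and 9 of 58, 0.021), and cytokines (4 and 7 of 60, 0.22). For the proteases the median was −1.11 within the libraries with Xist and 0.29 within those without it.

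**Figure D5:**
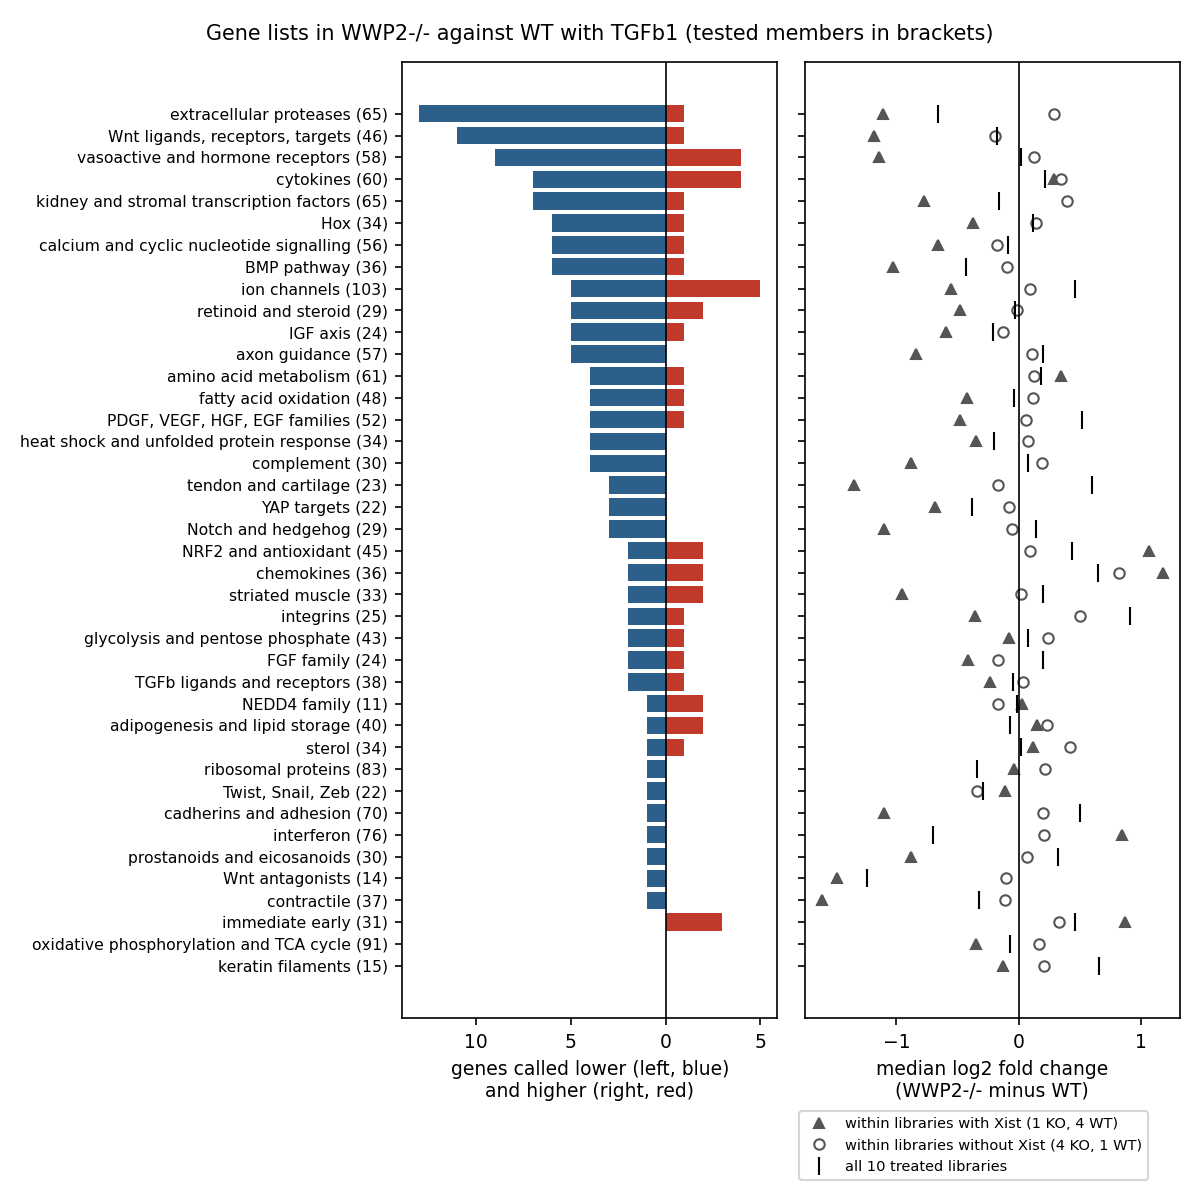
Left, number of genes called lower (blue, left of 0) and higher (red, right of 0) in WWP2-/- libraries for 40 gene lists, with tested members in brackets. Right, the median log2 fold change of each list over all 10 treated libraries (bar), within the libraries with Xist (triangle) and within those without (circle). Proteases and Wnt genes have the most genes called lower, and for proteases the triangle (−1.11) and the circle (0.29) lie on opposite sides of 0.

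Among the proteases, Mmp9 was the 1 gene called higher. Those lower that passed in each fit compared were Adamts9, which cleaves proteoglycans, at 6.28, 10.8, 4.56, 10.5 and 10.2 CPM in the WWP2-/- libraries and 35.2, 31.7, 27.7, 27.1 and 30.4 CPM in the WT libraries (log2 fold change −1.84, SE 0.31, adjusted p = 0.00639), and Reck, a membrane inhibitor of metalloproteases, at 12.0 to 30.3 CPM in WWP2-/- and 38.9 to 108 CPM in WT (log2 fold change −2.14, SE 0.42, adjusted p = 0.0115). In both, WT replicate 3 stayed above each WWP2-/- library. For other members WT replicate 3 was as low as the WWP2-/- libraries, and WWP2-/- replicate 1, which has Xist, was at the level of the other WWP2-/- libraries. Adamts5, the aggrecanase, was at 194 to 274 CPM in WWP2-/- libraries and at 1215 to 1652 CPM in the WT libraries with Xist, but at 198 CPM in WT replicate 3 (log2 fold change −2.34, SE 0.48, adjusted p = 0.0121, and −1.67 with Xist as a covariate, adjusted p = 0.124). Dpp4, a dipeptidase on the cell surface, was at 0.161 to 0.831 CPM against 10.2 to 20 CPM and, in WT replicate 3, 0.718 CPM (−4.59, SE 0.85). Cpxm2, a carboxypeptidase-like protein, was at 5.30 CPM or more in WT libraries with Xist, without a count in WT replicate 3 and at most 0.118 CPM in WWP2-/- libraries (−6.71, SE 1.3). Mmp23, in contrast, was at 26.5 to 66.1 CPM in WWP2-/- and 88.8 to 196 CPM in WT, with no overlap (log2 fold change −1.88, SE 0.40, adjusted p = 0.0138), and −1.30 with Xist as a covariate, adjusted p = 0.0634. Ace, the angiotensin-converting enzyme, was named for its size of difference, at 1.16, 1.21, 0.282, 1.33 and 1.52 CPM in the WWP2-/- libraries and 26.4, 42.9, 6.90, 23.7 and 34.5 CPM in the WT libraries (log2 fold change −4.60, SE 0.88, adjusted p = 0.010), and also differed in untreated cells (−4.49, adjusted p = 0.0270).

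In the BMP and TGFb pathways, the BMP list had 1 gene higher and 6 lower of 36 tested (median −0.43), and the list of TGFb ligands, receptors and targets 1 and 2 of 38 (−0.049). Smad9 and Chrd were the core members of the BMP list. Bmper, a secreted BMP modulator, was at 91.8, 167, 164, 103 and 105 CPM in the WWP2-/- libraries and 451, 486, 303, 232 and 526 CPM in the WT libraries, with no overlap (log2 fold change −1.66, SE 0.35, adjusted p = 0.0133), and −1.61 with Xist as a covariate, adjusted p = 0.0535. For Gdf6 and Gdf10, BMP-type ligands, WT replicate 3 was as low as the WWP2-/- libraries, whether these had Xist or not. Gdf6 was at 6.18 to 11.4 CPM in WWP2-/- and at 5.91 CPM in WT replicate 3, against 38.4 to 56.9 CPM in the other WT libraries (log2 fold change −2.18, SE 0.49, adjusted p = 0.0164). Gdf10 had 1 count in all WWP2-/- libraries, none in WT replicate 3 and 0.363 to 2.24 CPM in the other WT libraries (274 counts, a ratio of 294, with an exact 95% counting interval of 52.4 to 11665). Id4, a target of BMP signals, was at 0.185 to 6.65 CPM in WWP2-/- and 12.2 to 99.1 CPM in WT (log2 fold change −3.72, SE 0.89, adjusted p = 0.0221), and was called in 8 of the 10 fits that left out a library.

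Of the TGFb list, Smad6, an inhibitory SMAD, was at 13.6, 37.2, 39.4, 31.4 and 27.8 CPM in the WWP2-/- libraries and 65.5, 59.3, 88.7, 99 and 52.9 CPM in the WT libraries. WWP2-/- replicate 1 was lowest, WT replicates 3 and 4 were highest and the groups did not overlap (log2 fold change −1.29, SE 0.37, adjusted p = 0.0473), though it was called in 1 of the 10 fits, with log2 fold changes of −1.43 to −1.11. Ltbp1, which holds latent TGFb in the matrix, was at 37.5 to 66.1 CPM in WWP2-/- and 30.7 CPM in WT replicate 3, against 125 to 249 CPM in the other WT libraries (log2 fold change −1.86, SE 0.48, adjusted p = 0.0311).

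On the Wnt list, 19 of the 46 tested genes were positive, and the called genes included the receptors Fzd8 and Fzd1. Fzd8 was at 16.5, 31.7, 29.7, 31.5 and 31.6 CPM in the WWP2-/- libraries and 53.6, 60.5, 53.5, 53.4 and 51.4 CPM in the WT libraries (log2 fold change −0.95, SE 0.20, adjusted p = 0.0138), with no overlap, and is a core member. WT replicate 2 was the highest and WWP2-/- replicate 1 the lowest of its group by a gap. Fzd1 was at 44.3 to 93.5 CPM in WWP2-/- and 167 to 309 CPM in WT (log2 fold change −1.75, SE 0.36, adjusted p = 0.0124), also with no overlap. The transcription factors Tcf7l1 and Tcf7l2, which act with beta-catenin, were lower, Tcf7l1 at 13.0 to 18.1 against 20.8 to 43.8 CPM (−1.19, SE 0.25) and Tcf7l2 at 13.7 to 18.9 against 19.4 to 30.9 CPM (−0.61, SE 0.13). For Fzd1, Tcf7l1 and Tcf7l2 the adjusted p with Xist as a covariate was 0.0565, 0.0803 and 0.0543. Rspo2, a secreted enhancer of Wnt signals, was at 0.101 to 1.90 CPM in WWP2-/- and 5.83 to 39.2 CPM in WT (−4.16, SE 0.93), and Nkd1, a feedback inhibitor, at 0.185 to 3.97 CPM in WWP2-/- and 4.83 to 56.8 CPM in WT (−4.32, SE 0.87). Among 14 secreted Wnt antagonists, 10 were negative (median −1.24) and 1 was called, Sfrp1, at 3.07, 3.04, 1.09, 4.46 and 4.80 CPM in the WWP2-/- libraries and 736, 872, 9.32, 486 and 1023 CPM in the WT libraries. WT replicate 3 lay close to the highest WWP2-/- library (log2 fold change −7.57, SE 1.2, adjusted p = 0.00581, and −6.06 with Xist as a covariate, adjusted p = 0.0760).

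On the Notch and hedgehog list, 3 of 29 tested genes were called, all lower, and all are hedgehog components. That is 10.3%, beside 10.5% over the functional lists and 6.07% of all tested genes. Of the 29, 16 were positive, and the median was 0.14 beside 0.05 over all tested genes. Beside Smo, Boc, a co-receptor, was at 39.4, 23.1, 21.2, 15.2 and 15.7 CPM in the WWP2-/- libraries and 74.8, 95.7, 47.9, 79.1 and 87.7 CPM in the WT libraries (log2 fold change −1.75, SE 0.35, adjusted p = 0.0121), with no overlap, and is a core member. Gas1, another co-receptor, was at 13.3, 121, 9.34, 122 and 136 CPM in the WWP2-/- libraries and 589, 838, 76.0, 841 and 774 CPM in the WT libraries. WT replicate 3 lay below 3 of the WWP2-/- libraries (log2 fold change −2.96, SE 0.81, adjusted p = 0.0380), and within the libraries without Xist the difference was 0.35.

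Growth factor genes fell into those with and those without a difference in WT replicate 3. On the IGF list, 1 gene was higher and 5 were lower of 24. Igfbp4 was at 1.11 to 10.1 CPM in WWP2-/- and 13.5 to 63.3 CPM in WT (log2 fold change −2.92, SE 0.63, adjusted p = 0.0141), with WT replicate 3 the lowest of its group and no overlap. Igfbp3, the main IGF carrier, was at 201, 14.3, 33.0, 39.4 and 29.5 CPM in the WWP2-/- libraries and 3214, 5111, 15.1, 5967 and 4402 CPM in the WT libraries, so that WT replicate 3 lay within the WWP2-/- range (log2 fold change −5.88, SE 1.3, adjusted p = 0.0177, and −3.95 with Xist as a covariate, adjusted p = 0.228). Of the imprinted neighbours Igf2 and H19, the former was at 0.236 to 2.38 against 3.15 to 59.9 CPM (−4.11, SE 0.92) and the latter at 0 to 2.68 against 0.659 to 533 CPM (−7.81, SE 1.6), and WT replicate 3 had 3.15 and 0.659 CPM of them. Stc1 (stanniocalcin 1), an inhibitor of the protease that cleaves IGF-binding proteins, was the gene called higher, at 0.827 to 4.39 CPM in WWP2-/- and 0.0613 to 0.659 CPM in WT (log2 fold change 2.84, SE 0.65, adjusted p = 0.0178). Without WWP2-/- replicate 2 its log2 fold change was 2.05.

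Of 52 tested genes of the PDGF, VEGF, HGF and EGF families, 1 was higher and 4 lower. Vegfd, a lymphatic growth factor, was at 21.1, 4.96, 1.80, 5.09 and 4.53 CPM in the WWP2-/- libraries and 192, 366, 9.50, 414 and 269 CPM in the WT libraries (log2 fold change −5.06, SE 1.0, adjusted p = 0.0121), and −3.09 with Xist as a covariate, adjusted p = 0.0760. The receptors Tek and Kdr were at 0.989 to 1.75 and 0.484 to 2.80 CPM in WWP2-/- libraries and at 1.52 and 1.78 CPM in WT replicate 3, against 8.95 to 14.2 and 5.56 to 9.43 CPM in the other WT libraries (log2 fold changes −2.87 and −1.76). Pecam1 and Cdh5, which define endothelium, were at 29.6 and 58.1 CPM in WT replicate 3 and 9.24 and 17.7 CPM in WT replicate 1. In WT replicates 2, 4 and 5 they were at most 1.37 CPM. In WWP2-/- replicates 1 to 5, Pecam1 was at 0.0505, 12.8, 2.08, 26.4 and 25.0 CPM and Cdh5 at 2.09, 28.5, 3.13, 46.2 and 44.8 CPM. The part of endothelial cells in the differences of Tek and Kdr was not tested. Areg (amphiregulin, an EGF receptor ligand) was higher, at 0.665 to 2.41 CPM in WWP2-/- and 0.0404 to 0.419 CPM in WT (log2 fold change 3.05, SE 0.71, adjusted p = 0.0187), and Nrg2 lower, at 0.337 to 0.665 CPM in WWP2-/- and 0.559 to 1.45 CPM in WT (−1.20, SE 0.35). On the FGF list, Fgfr2 was at 11.8 to 21.7 CPM in WWP2-/- and 23.9 to 46.3 CPM in WT (−0.80, SE 0.21), Spry4, a feedback inhibitor, at 13.7 to 22.7 CPM in WWP2-/- and 7.15 to 14.7 CPM in WT (0.79, SE 0.21), and Fgf14 at 0 to 0.0404 CPM in WWP2-/- and 0.0200 to 0.449 CPM in WT (−4.12, SE 1.1). Ptn (pleiotrophin), which was also called without TGFb1, was at 1.21, 0.200, 0.464, 0.503 and 0.385 CPM in the WWP2-/- libraries and 129, 367, 0.599, 351 and 180 CPM in the WT libraries (log2 fold change −8.53, SE 1.4, adjusted p = 0.00614), with WT replicate 3 within the WWP2-/- range.

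Among vasoactive and hormone receptors, the adrenoceptors differed in direction. Adra2a, which inhibits cyclic AMP formation, was higher, at 18.4, 28.0, 37.8, 16.6 and 12.5 CPM in the WWP2-/- libraries and 7.18, 5.77, 12.2, 3.64 and 8.19 CPM in the WT libraries (log2 fold change 1.62, SE 0.37, adjusted p = 0.0172), with no overlap, opposite to Adra1b and Adra1d. Adora2a, an adenosine receptor that raises cyclic AMP, was at 0.575 to 2.0 CPM in WWP2-/- and 1.18 to 28.5 CPM in WT (log2 fold change −3.89, SE 0.87, adjusted p = 0.0162), with 1.18 CPM in WT replicate 3. S1pr3, a sphingosine-1-phosphate receptor, was at 4.94 to 8.74 CPM in WWP2-/- and 13.5 to 109 CPM in WT, with no overlap (log2 fold change −2.96, SE 0.64, adjusted p = 0.0142). Bdkrb2, the bradykinin B2 receptor, was at 92.8, 1.91, 1.67, 0.970 and 1.72 CPM in the WWP2-/- libraries and 0.383, 0.140, 0.698, 0.0202 and 0.163 CPM in the WT libraries (log2 fold change 6.13, SE 1.7, adjusted p = 0.0374). The value rested on WWP2-/- replicate 1, without which it was 2.46 (adjusted p = 0.166), and it was called in 5 of the 10 fits. On the list of calcium and cyclic nucleotide signalling (1 higher and 6 lower of 56), 3 phosphodiesterases, which degrade cyclic nucleotides, were lower. Pde3a was at 21.6 to 70.0 against 85.4 to 118 CPM with no overlap (−1.59, SE 0.42), Pde8b at 3.85 to 9.16 against 8.58 to 29.9 CPM (−1.67, SE 0.42) and Pde1a at 3.36 to 11.0 against 3.29 to 56.2 CPM (−2.64, SE 0.67). They were called in 3, 4 and 3 of the 10 fits. Adcy1 (−2.15, SE 0.60) and Prkce (−0.91, SE 0.23) were lower. Of 30 genes of prostanoid and eicosanoid metabolism, Tbxa2r alone was called, and DESeq2 called 1 higher and 3 lower.

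Among cytokines and their receptors, Il11 and Il7, a lymphoid growth factor made by stroma, were higher. Il7 was at 9.42, 8.53, 5.45, 10.9 and 9.18 CPM in the WWP2-/- libraries and 3.65, 3.43, 4.97, 2.24 and 2.67 CPM in the WT libraries, with no overlap (log2 fold change 1.36, SE 0.31, adjusted p = 0.0171). Il33, an alarmin of stromal nuclei, was lower, at 4.23, 5.29, 0.726, 1.90 and 1.60 CPM in the WWP2-/- libraries and 29.9, 47.2, 2.67, 37.5 and 41.5 CPM in the WT libraries, and WT replicate 3 lay within the WWP2-/- range (log2 fold change −3.53, SE 0.75, adjusted p = 0.0138, and −2.13 with Xist as a covariate, adjusted p = 0.155). Tnfsf15 was at 0.323 to 4.17 CPM in WWP2-/- and 0.778 to 81.8 CPM in WT (−4.76, SE 1.1), with 0.778 CPM in WT replicate 3. The TNF receptors Tnfrsf1b and Tnfrsf1a were both lower. Tnfrsf1b was at 81.4, 73.0, 77.8, 73.7 and 76.8 CPM in the WWP2-/- libraries and 102, 118, 100, 91.1 and 121 CPM in the WT libraries, a small difference with no overlap that was called in each fit compared (log2 fold change −0.48, SE 0.080, adjusted p = 0.00639). Tnfrsf1a was at 151 to 248 CPM in WWP2-/- and 244 to 393 CPM in WT (−0.67, SE 0.16). Genes of immune receptors named for the size of their difference were Cd40 (2.71 to 30.9 CPM in WWP2-/- and 0.626 to 1.66 CPM in WT; log2 fold change 3.30, and 2.11 without WWP2-/- replicate 1) and Il18rap (1.70 to 14.1 CPM in WWP2-/- and 0.222 to 1.02 CPM in WT; 2.99, and 2.16 without that library).

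Of 36 chemokines and chemokine receptors, 2 were higher and 2 lower. Ccr1, a receptor of myeloid cells, was at 5.19, 2.54, 0.847, 15.9 and 9.70 CPM in the WWP2-/- libraries and 0.343, 0.180, 1.06, 0.364 and 0.143 CPM in the WT libraries (log2 fold change 4.03, SE 1.0, adjusted p = 0.0272). WWP2-/- replicate 3 lay within the WT range, and the gene was highest in WWP2-/- replicates 4 and 5, the libraries with the largest sums of macrophage markers, and the part of those cells in its difference was not tested. Cxcl14 was at 0.893 to 7.67 CPM in WWP2-/- and 0.180 to 2.02 CPM in WT (2.37, SE 0.67) and Ccl20 at 0 to 0.192 CPM in WWP2-/- and 0 to 3.47 CPM in WT (−4.02, SE 0.96). Ackr4, a scavenging receptor, was at 0.236, 0.632, 0.585, 1.74 and 1.42 CPM in the WWP2-/- libraries and 8.41, 7.43, 5.09, 23.4 and 11.3 CPM in the WT libraries, with no overlap (log2 fold change −3.59, SE 0.81, adjusted p = 0.0164), and was also called in untreated cells (−4.85, adjusted p = 0.0214). Of 30 complement genes, 4 were lower. Serping1, the C1 inhibitor, was at 2.38 to 114 CPM in WWP2-/- and 103 to 494 CPM in WT (log2 fold change −3.29, SE 0.85, adjusted p = 0.0306, and −4.48 without WWP2-/- replicate 1). The complement component C4b was at 0.182 to 10.5 against 3.83 to 114 CPM (−3.32, SE 0.85) and the scavenger collectin Colec12 at 29.0 to 177 against 99.1 to 448 CPM (−1.86, SE 0.51).

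Interferon-stimulated genes differed in sign between the fit of all libraries and the differences within each kind. Of 76 tested, 63 were negative (median −0.70), and 1 was called, Samhd1, a nuclease that restricts viruses, at 77.7, 58.4, 32.0, 80.9 and 75.8 CPM in the WWP2-/- libraries and 198, 275, 118, 104 and 228 CPM in the WT libraries (log2 fold change −1.51, SE 0.27, adjusted p = 0.00783). DESeq2 called 1 higher and 3 lower. Without WWP2-/- replicate 1, 44 were called lower. Within the libraries with Xist, where this is the WWP2-/- library, 8 were negative and the median was 0.85, and within those without Xist 28 were negative (median 0.21).

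In lipid metabolism, Plin2 was joined by Pnpla2, the lipase that opens triglyceride stores, at 85.6, 84.1, 77.9, 115 and 99.7 CPM in the WWP2-/- libraries and 55.6, 50.7, 75.1, 56.6 and 57.0 CPM in the WT libraries (log2 fold change 0.65, SE 0.17, adjusted p = 0.0306), with no overlap. The lipoprotein receptor Vldlr was lower, at 50.9 to 62.9 CPM in WWP2-/- and 63.1 to 137 CPM in WT (−0.89, SE 0.21). Cyp7b1, an oxysterol hydroxylase, was at 2.64 to 8.56 CPM in WWP2-/- and 2.75 to 53.0 CPM in WT (−2.83, SE 0.56). In fatty acid oxidation, 1 gene was higher (Acsl4) and 4 were lower of 48 (median −0.035). Cpt1a, the entry step of mitochondrial fatty acid oxidation, was at 122, 113, 67.2, 127 and 127 CPM in the WWP2-/- libraries and 196, 227, 99.2, 167 and 240 CPM in the WT libraries (log2 fold change −0.74, SE 0.20, adjusted p = 0.0350). WT replicate 3 lay within the WWP2-/- range, and it was called in 2 of the 10 fits. Acadsb was at 94.2 to 115 CPM in WWP2-/- and 119 to 142 CPM in WT with no overlap (−0.37, SE 0.098), and of the electron transfer flavoproteins Etfa was at 47.9 to 65.8 against 55.0 to 109 CPM (−0.56, SE 0.16) and Etfb at 2.17 to 4.37 against 3.95 to 10.3 CPM (−1.07, SE 0.27).

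In central carbon metabolism, Hk2 was higher and Pdha1, the subunit of pyruvate dehydrogenase that links glycolysis to the TCA cycle, was lower, both in each fit compared. Pdha1 was at 151, 164, 157, 132 and 153 CPM in the WWP2-/- libraries and 246, 256, 207, 220 and 268 CPM in the WT libraries, with no overlap (log2 fold change −0.66, SE 0.12, adjusted p = 0.00960). Pdk3, a kinase that inhibits this enzyme, was at 17.7 to 24.5 CPM in WWP2-/- and 18.6 to 39.3 CPM in WT (−0.71, SE 0.20). Of 91 genes of oxidative phosphorylation and the TCA cycle, none was called by edgeR, with 12 at an unadjusted p under 0.05, and 2 were called lower by DESeq2. There 64 were negative (median −0.073), with 81 negative within the libraries with Xist and 18 within those without. The smallest adjusted p were those of Ndufa3 (0.0605, log2 fold change −0.60) and Cox4i2 (0.0777, −1.39). Among 61 genes of amino acid metabolism, Glul, glutamine synthetase, was lower at 65.5, 75.6, 39.0, 77.3 and 70.7 CPM in the WWP2-/- libraries and 103, 103, 92.7, 105 and 118 CPM in the WT libraries, with no overlap (log2 fold change −0.67, SE 0.18, adjusted p = 0.0362). The transporters Slc38a2, Slc38a4 and Slc43a1 had log2 fold changes of −0.68, −3.78 and −3.18, with WT replicate 3 at 254, 0.0798 and 1.08 CPM, within the WWP2-/- ranges.

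In the antioxidant list, 2 genes were higher and 2 lower of 45 (median 0.44). Prdx1, an abundant peroxidase, was at 3002, 1543, 799, 1601 and 1197 CPM in the WWP2-/- libraries and 610, 558, 769, 816 and 558 CPM in the WT libraries (log2 fold change 1.30, SE 0.35, adjusted p = 0.0353). WWP2-/- replicate 3 lay within the WT range, and the call held in 3 of the 10 fits. The members called lower were Gstt1 and Gsta4, glutathione transferases, with Gstt1 at 0.343 to 3.37 against 4.03 to 23.1 CPM (−2.75, SE 0.60) and Gsta4 at 18.2 to 69.0 against 74.3 to 204 CPM (−1.12, SE 0.32), both with no overlap. Immediate early genes were positive in 24 of 31 (median 0.46), with Jun, Nr4a2 and Egr2 called higher. Egr2 was at 5.04 to 27.4 CPM in WWP2-/- and 1.94 to 6.53 CPM in WT (log2 fold change 1.78, SE 0.45, adjusted p = 0.0277), and without WWP2-/- replicate 3 it was 1.22. Of 34 heat shock and unfolded protein response genes, 4 were lower. Among those of the endoplasmic reticulum, the chaperone Hsp90b1 was at 499 to 693 against 643 to 1114 CPM (−0.81, SE 0.18), Serpinh1, the chaperone of collagen, at 788 to 1547 against 1398 to 2867 CPM (−0.98, SE 0.23), and the disulfide isomerase Pdia6 at 245 to 323 against 301 to 589 CPM (−0.68, SE 0.18). Hspb7 was at 0.0592 to 1.37 CPM in WWP2-/- and 0.0599 to 15.3 CPM in WT (−3.96, SE 1.1).

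The Hox list had 1 gene higher and 6 lower of 34 (median 0.12). Beside the core members, Hoxc6 was at 75.9, 73.2, 80.4, 41.0 and 44.4 CPM in the WWP2-/- libraries and 121, 124, 170, 148 and 127 CPM in the WT libraries (log2 fold change −1.13, SE 0.27, adjusted p = 0.0207), with no overlap. In the HoxA cluster, Hoxa5 was at 26.8 to 37.1 against 38.7 to 59.2 CPM (−0.67, SE 0.16) and Hoxa2 at 1.89 to 2.54 against 2.61 to 5.11 CPM (−0.99, SE 0.23), both with no overlap. Of 65 kidney and stromal transcription factors, 1 was higher and 7 lower (median −0.16). Ebf1 was at 23.2 to 55.6 CPM in WWP2-/- and 44.6 to 138 CPM in WT (−1.54, SE 0.39), Nkx3-2 at most 0.0674 CPM in WWP2-/- libraries, without a count in WT replicate 3 and at 1.17 to 2.42 CPM in the other WT libraries, and Nfatc1 was higher at 22.9 to 53.4 CPM in WWP2-/- and 11.4 to 23.3 CPM in WT (0.86, SE 0.24, and 0.55 without WWP2-/- replicate 3). On the list of Twist, Snail, Zeb and related factors, Msx1 alone of 22 was called, at 1.08, 0.632, 0.585, 1.13 and 1.01 CPM in the WWP2-/- libraries and 2.02, 3.07, 2.16, 3.35 and 2.12 CPM in the WT libraries, with no overlap (log2 fold change −1.52, SE 0.32, adjusted p = 0.0133).

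The YAP and TEAD list had 3 of 22 genes lower and none higher. Tead3, a DNA-binding partner of YAP, was at 29.8 to 49.0 against 53.6 to 91.3 CPM (−0.87, SE 0.19), Wtip at 26.3 to 32.8 against 36.2 to 87.3 CPM (−1.03, SE 0.21) and Vgll4, a repressor of these factors, at 32.3 to 40.0 against 44.7 to 52.6 CPM (−0.48, SE 0.11), each with no overlap and with adjusted p of 0.0158, 0.0121 and 0.0206. Of 37 contractile genes, only Itga8, an integrin of smooth muscle and mesangium, was called, at 1.63, 0.466, 1.27, 0.413 and 0.651 CPM in the WWP2-/- libraries and 3.31, 3.01, 1.60, 3.47 and 3.70 CPM in the WT libraries (log2 fold change −1.76, SE 0.43, adjusted p = 0.0226). Within the libraries with Xist, where WWP2-/- replicate 1 is the lone knockout library, all 37 were negative (median −1.61), and within those without Xist 22 were (median −0.11). Among muscle genes, the troponins differed in direction. Tnnt1, a core member, was lower at 0.0333 to 0.202 against 0.259 to 1.17 CPM (−2.97, SE 0.52), as was Tnnt3 at 0.303 to 0.525 against 0.715 to 1.24 CPM (−1.36, SE 0.31), and Tnnc1 was higher at 2.48 to 6.17 against 1.02 to 2.0 CPM (1.46, SE 0.40). No gene of 15 keratins and intermediate filaments was called by edgeR, with 3 at an unadjusted p under 0.05, and DESeq2 called 2 higher. The smallest adjusted p were those of Nefm (0.0841) and Ina (0.132). On the tendon and cartilage list, Clec3b (tetranectin) was lower beside Tnmd and Gdpd2, at 0.0202 to 0.118 CPM in WWP2-/- and 0.140 to 4.04 CPM in WT (−4.62, SE 0.97).

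Of 57 axon guidance genes, 5 were called lower (8.77%, beside 3.96% of all tested genes) and none higher, while 33 were positive and the median was 0.20. DESeq2 called 5 lower and 1 higher. Ephb3, a receptor of ephrins, was at 24.9, 24.8, 41.2, 23.1 and 23.5 CPM in the WWP2-/- libraries and 84.5, 111, 48.8, 120 and 111 CPM in the WT libraries, with no overlap (log2 fold change −1.79, SE 0.31, adjusted p = 0.00669), and is a core member. Ephb2 was at 7.5 to 14.9 CPM in WWP2-/- and 5.05 to 65.7 CPM in WT (−2.04, SE 0.55), with 5.05 CPM in WT replicate 3, the lowest of the 10 libraries. The guidance proteins Sema3a and Sema6c were at 8.61 to 22.2 against 17.0 to 61.4 CPM (−1.76, SE 0.49) and 5.98 to 8.47 against 10.8 to 16.3 CPM (−0.79, SE 0.21). Of 25 integrins, Itga9 and Itgbl1 were lower and Itgal, an integrin of leukocytes, was higher, with log2 fold changes of −1.16, −4.36 and 3.08. Itgal was at 0.640, 1.71, 2.70, 3.88 and 2.71 CPM in the WWP2-/- libraries and 0.242, 0.160, 0.718, 0.0808 and 0.163 CPM in the WT libraries, and WWP2-/- replicate 1 lay below WT replicate 3. The part of leukocytes in this difference was not tested. Of 70 cadherins and adhesion genes, Tjp1, a tight junction scaffold, was called, at 104 to 180 CPM in WWP2-/- and 140 to 340 CPM in WT (−0.83, SE 0.23).

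Ion channels were called in both directions, 5 higher and 5 lower of 103. Cacnb3, a subunit of calcium channels, was at 98.9, 82.0, 95.4, 80.7 and 83.6 CPM in the WWP2-/- libraries and 121, 127, 121, 151 and 129 CPM in the WT libraries, with no overlap (log2 fold change −0.56, SE 0.12, adjusted p = 0.0133). Hcn2 was at 4.36 to 6.97 CPM in WWP2-/- and 7.82 to 9.64 CPM in WT, also with no overlap (−0.73, SE 0.18). Kcnh1 was higher at 1.23 to 6.80 CPM in WWP2-/- and 0.160 to 1.70 CPM in WT (2.41, SE 0.69). Scn7a and Cacna1a were lower, with log2 fold changes of −3.82 and −1.28 and 0.0798 and 6.61 CPM in WT replicate 3. Grik2 had 3 counts in all WT libraries together against 63 in WWP2-/-, a ratio of 19.6, with an exact 95% counting interval of 6.39 to 97.3. Retinoid and steroid genes had 2 higher and 5 lower of 29. Aldh1a1, a maker of retinoic acid, was at 1.28, 6.34, 4.08, 6.27 and 6.07 CPM in the WWP2-/- libraries and 50.2, 49.2, 23.9, 57.1 and 43.6 CPM in the WT libraries, with no overlap (log2 fold change −3.22, SE 0.67, adjusted p = 0.0133, and −3.41 with Xist as a covariate, adjusted p = 0.0536). Of the enzymes that degrade retinoic acid, Cyp26b1 was lower at 0.787 to 5.49 CPM in WWP2-/- and 5.82 to 27.5 CPM in WT (−2.70, SE 0.70) and Cyp26a1 higher at 0.288 to 1.65 CPM in WWP2-/- and 0.0404 to 0.259 CPM in WT (2.70, SE 0.76). Rxra, a retinoid receptor, was at 56.0 to 90.5 CPM in WWP2-/- and 91.2 to 98.6 CPM in WT (−0.47) and Nr3c1, the glucocorticoid receptor, at 92.8 to 135 CPM in WWP2-/- and 125 to 196 CPM in WT (−0.52).

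Of the NEDD4 family and its adaptors, 11 were tested and 3 called. Wwp2 was lower, and Ndfip2, an adaptor that activates these ligases, was higher at 98.5, 86.2, 102, 88.0 and 80.4 CPM in the WWP2-/- libraries and 64.2, 61.0, 68.9, 65.7 and 64.1 CPM in the WT libraries, a small difference with no overlap (log2 fold change 0.49, SE 0.091, adjusted p = 0.00860). Nedd4l was at 142, 81.3, 39.6, 139 and 131 CPM in the WWP2-/- libraries and 49.3, 41.1, 59.8, 30.9 and 44.6 CPM in the WT libraries (log2 fold change 1.24, SE 0.33, adjusted p = 0.0335). WWP2-/- replicate 3 lay within the WT range, and the call held in 4 of the 10 fits. Among 83 ribosomal proteins, 81 were negative with a median of −0.34, and 1 was called, Rpl22l1, at 22.7 to 38.2 CPM in WWP2-/- and 34.5 to 93.6 CPM in WT (−1.03, SE 0.24). With Xist as a covariate the median of this list was −0.0058, and within the libraries without Xist 10 were negative.

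The most abundant called genes outside the ECM core and cell cycle lists mostly had moderate differences, with those of Lox and Emp1 the largest. Higher were, beside Prdx1, Plin2 and Capg, the ceramide enzyme Degs1 (303 to 401 CPM in WWP2-/- and 237 to 287 CPM in WT), the clock-related repressor Bhlhe40 (179 to 404 CPM in WWP2-/- and 117 to 247 CPM in WT), the GTPase Rhob (260 to 359 CPM in WWP2-/- and 138 to 293 CPM in WT) and the antiproliferative gene Btg1 (247 to 298 CPM in WWP2-/- and 88.3 to 253 CPM in WT). Their log2 fold changes were 0.40, 1.10, 0.68 and 1.04, and they were called in 5, 4, 3 and 2 of the 10 fits. Lower were, beside Serpinh1 and Hsp90b1, Lox, the enzyme that crosslinks collagen, at 1998, 951, 2104, 672 and 572 CPM in the WWP2-/- libraries and 5093, 6572, 1776, 5144 and 6538 CPM in the WT libraries (log2 fold change −2.0, SE 0.53, adjusted p = 0.0340), and Gsn (gelsolin, an actin-severing protein) at 427, 623, 866, 734 and 683 CPM in the WWP2-/- libraries and 1307, 1619, 1224, 2087 and 1495 CPM in the WT libraries, with no overlap (log2 fold change −1.21, SE 0.33, adjusted p = 0.0353). Laptm4a (845 to 1044 CPM in WWP2-/- and 1066 to 1694 CPM in WT), Marcks (469 to 702 CPM in WWP2-/- and 706 to 1675 CPM in WT), Sptbn1 (514 to 936 CPM in WWP2-/- and 671 to 1629 CPM in WT) and Emp1 (45.7 to 378 CPM in WWP2-/- and 114 to 2768 CPM in WT) followed, with log2 fold changes of −0.63, −1.04, −1.03 and −3.50. Of these, Marcks was called in each of the 10 fits. For Lox and Emp1, WT replicate 3 lay within the WWP2-/- range, at 1776 and 114 CPM. With Xist as a covariate their log2 fold changes were −1.06 and −1.68 (edgeR, adjusted p = 0.233 and 0.194). The remaining genes with the largest differences and no overlap were Rassf10 (4.50), Rnf183 (3.50), Fam110c (3.33) and Spint1 (3.69), which were higher, and Mlana (−4.56), Arsi (−4.24), Nkain4 (−4.09) and Tmem119 (−4.0), which were lower. Without WWP2-/- replicate 1, Rassf10 and Fam110c differed by 2.96 and 1.69.

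In the untreated libraries, 148 genes (0.725%) were called by the same fit, 21 higher and 127 lower in WWP2-/- libraries, and DESeq2 called 743. There, Xist was above 1 CPM in 2 of 5 WWP2-/- and 4 of 5 WT libraries. Of the genes called with TGFb1, 5 of 429 were also called higher and 109 of 809 also lower without it, and 382 and 770 had the same sign. Slc4a8, a bicarbonate transporter, was higher at 5.34, 4.24, 5.51, 3.11 and 2.68 CPM in the WWP2-/- libraries and 1.90, 2.22, 1.66, 1.15 and 2.61 CPM in the WT libraries with TGFb1 (log2 fold change 1.13, SE 0.23, adjusted p = 0.0133) and by 1.12 without it (adjusted p = 0.0354). Fbxo16, a substrate receptor of a ubiquitin ligase, was higher at 1.80, 1.75, 2.08, 1.85 and 1.39 CPM in the WWP2-/- libraries and 0.686, 0.761, 0.619, 0.707 and 0.735 CPM in the WT libraries (log2 fold change 1.34, SE 0.21, adjusted p = 0.00581) and by 1.06 without TGFb1 (adjusted p = 0.0270), and both genes belong to the core. Rbm11 and Ndc1 had log2 fold changes of 1.09 and 0.45 with and of 1.54 and 0.58 without TGFb1. Lower in both were, among the core, Chrd, Igfbp6, Tbxa2r, Ephb3, Olfml3, Tnmd, Lhx8 and Slc6a7, and also Sprr3, with 2 counts in all WWP2-/- libraries against 1908 in WT, a ratio of 1025, with an exact 95% counting interval of 283 to 8467. Other core genes had untreated differences near 0, such as Foxd1 (0.31, adjusted p = 0.708), Gata2 (0.15, 0.801), Samhd1 (0.10, 0.874) and Ndfip2 (0.03, 0.895). The difference between the comparisons itself was called for 0 genes by edgeR, with 1424 at an unadjusted p under 0.05, and for 10 by DESeq2, so that none of these genes is shown by edgeR to differ in its response to genotype with and without TGFb1. For Foxd1, Gata2 and Samhd1 the adjusted p of that test were 0.511, 0.511 and 0.511.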

How the data were processed

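The deposited table holds raw read counts per gene for 20 libraries of poly-A RNA. Per the study's methods, the authors aligned reads with STAR to the mouse genome (GRCm38, mm10) and counted read pairs over exons with featureCounts; the strand setting is not given in the sources used here. Samples were grouped by the genotype and treatment in the labels. A minimum of 5 counts in 5 or more of the libraries kept 20407 of 51826 genes (99.984% of the counts), symbols came from GENCODE M21 on the same build (20356 matched), and promoter sequences from RefSeq.

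edgeR 4.0.16 (R 4.3.3) was run on the counts with TMM normalization, 4 groups in 1 fit over the 20 libraries, the quasi-likelihood F-test and Benjamini-Hochberg adjustment at 0.05. Log2 CPM used a prior count of 2. DESeq2 1.42.0, limma 3.58.1, the level of Xist as a covariate, other filters and leaving out each treated library were alternatives. On simulated counts for this comparison, 19995 genes passed the filter, the changed ones among them. The fit recovered 36% of 100 genes changed by a log2 value of 1 and 66% of 100 changed by 2, with 3 false calls. Simulated libraries of a group shared a mean for each gene, without the 2 kinds of library seen here, so these rates may not hold for the data. The members and gene lists were chosen with earlier results of these data known, and the cell cycle list comes from Seurat 5.3.0. The within-kind differences (a fit of 8 groups), the fit without both WWP2-/- replicate 1 and WT replicate 3, and DESeq2 for the untreated comparison and the interaction were added after seeing the data. Genes named in the text were, outside the ECM core and cell cycle lists and without clone names, up to 15 called genes per direction with the largest log2 fold change among those with no overlap and a mean of at least 1 CPM, the 8 called with the highest mean CPM per direction, up to 6 called members of each list (the 2 smallest adjusted p where none was called), up to 10 per direction called in each fit compared and up to 6 per direction also called untreated. The targeted gene, Xist and the cell type markers were named beside them. Of the genes so named, 6 are not reported here.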

Additional observations from a re-analysis of the deposited data

Results flagged for a closer look

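Single libraries were far from the others of their group (a gap of the highest or lowest library, on the log2 CPM scale, above the 95% critical value of Dixon's test) in 72 of 376 groups of 5 libraries. The groups are named genes over the same treated libraries, chosen from these data, and are not independent. The rate of about 1 in 20 that chance gives for independent groups is thus no measure of an excess here. No cause was tested. WT replicate 3 lay far below the other WT libraries in 37 genes, the largest number of any library. These held Xist at 0.120 CPM, Tnmd at 0.0399 CPM, Sfrp1 at 9.32 CPM, Fam180a at 3.79 CPM, Arsi at 0.639 CPM, Tmem119 at 13.7 CPM, Lox at 1776 CPM, Sptbn1 at 671 CPM, Emp1 at 114 CPM, Itga8 at 1.60 CPM, Chrd at 11.4 CPM, Gdf6 at 5.91 CPM and Gas1 at 76.0 CPM. They also held Vegfd at 9.50 CPM, Tek at 1.52 CPM, Igfbp6 at 100 CPM, H19 at 0.659 CPM, Igfbp3 at 15.1 CPM, Dpp4 at 0.718 CPM, Cpxm2 at 0 CPM, Adamts5 at 198 CPM, Il33 at 2.67 CPM, Serping1 at 103 CPM, Colec12 at 99.1 CPM, Cyp7b1 at 2.75 CPM and Pdk3 at 18.6 CPM. The rest were Slc38a4 at 0.0798 CPM, Hspb7 at 0.0599 CPM, Ephb2 at 5.05 CPM, Itga9 at 5.87 CPM, Itgbl1 at 0.359 CPM, Scn7a at 0.0798 CPM, Pde1a at 3.29 CPM, Lhx8 at 0 CPM, Nkx3-2 at 0 CPM, Olfml3 at 12.5 CPM and Ptn at 0.599 CPM.

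WT replicate 3 lay far above its group for Plin2 at 237 CPM. WT replicate 2 lay far below its group for Nefm at 0.120 CPM. WT replicate 2 lay far above its group for Fzd8 at 60.5 CPM. WT replicate 4 lay far above its group for Hoxc8 at 128 CPM. WWP2-/- replicate 1 lay far above its group for Xist at 225 CPM, Bdkrb2 at 92.8 CPM, Rassf10 at 12.1 CPM, Fam110c at 117 CPM, Nr4a2 at 18.2 CPM, Lhx8 at 0.0505 CPM and Olfml3 at 15.6 CPM. WWP2-/- replicate 1 lay far below its group for Bhlhe40 at 179 CPM, Fzd8 at 16.5 CPM, Adra1d at 1.35 CPM, Cxcl14 at 0.893 CPM, Scn7a at 0 CPM and Aldh1a1 at 1.28 CPM. WWP2-/- replicate 2 lay far above its group for Stc1 at 4.39 CPM and Acadsb at 115 CPM. WWP2-/- replicate 3 lay far above its group for Hsp90b1 at 693 CPM, Adora2a at 2.0 CPM, Ephb3 at 41.2 CPM, Nfatc1 at 53.4 CPM and Hoxa5 at 37.1 CPM. WWP2-/- replicate 3 lay far below its group for Gdpd2 at 0.0202 CPM, Ace at 0.282 CPM, C4b at 0.182 CPM, Cpt1a at 67.2 CPM, Glul at 39.0 CPM, Gstt1 at 0.343 CPM and Gsta4 at 18.2 CPM. WWP2-/- replicate 4 lay far above its group for Laptm4a at 1044 CPM and Gdf10 at 0.0180 CPM. WWP2-/- replicate 5 lay far above its group for Tnmd at 0.0148 CPM and Ndufa3 at 38.4 CPM. For Gdf10 and Tnmd these values are 1 count each, at the floor of detection.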

How the results depend on the processing

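The number of genes called was 1238. It came to 2672 with DESeq2 (1284 higher, 1388 lower), 790 with no filter on low counts, 569 from the treated libraries alone, 544 with Xist as a covariate, 8186 with limma-voom and quality weights (4238 higher, 3948 lower), 101 at an adjusted p of 0.01 and 820 with a log2 fold change of at least 1 in size, while DESeq2 size factors (1219), the robust fit (1235) and a minimum of 10 counts in each treated library (1052) moved it less. Leaving out 1 treated library gave 464 to 2702 genes. In the alternatives added after seeing the data it was 4291 without WWP2-/- replicate 1 and WT replicate 3, 2586 within the libraries with Xist (688 of them among the 1238) and 49 within those without Xist (38 among them), and DESeq2 called 743 genes in untreated cells and 10 for the difference of the genotype effect. The limma-voom quality weights were 0.155 for WWP2-/- replicate 1, 0.352 for WT replicate 3 and 0.345 for WT replicate 4. Those of the other treated libraries were 0.383 to 3.29. Without WWP2-/- replicate 1 and WT replicate 3, genotype and kind of library coincide, and limma-voom gave both a low weight. The causes were not tested.

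Of the named genes, 183 were called, against 113 from the treated libraries alone, 68 with Xist as a covariate, 10 within the libraries without Xist and 101 to 184 when 1 library was left out. Of the list members 181 were called, against 350 with DESeq2, 108 from the treated libraries alone, 94 with Xist, 959 with limma-voom, 649 without both libraries named above, 347 within the libraries with Xist, 13 within those without, and 87 to 344 when 1 library was left out. No named gene changed its sign under DESeq2, its size factors, the filters that kept the gene, limma-voom, Xist as a covariate or leaving out 1 library. Xist itself turned to 0.15 within the libraries with Xist, and 22 named genes, all lower in the comparison of all libraries, turned within those without Xist, where their log2 fold changes were Sptbn1 0.006, Ltbp1 0.61, Gdf6 0.67, Gas1 0.35, H19 0.95, Igfbp3 0.94, Adamts5 0.29, Tnfsf15 1.03, C4b 0.23, Cyp7b1 0.48, Cpt1a 0.13, Etfa 0.07, Pdk3 0.016, Slc38a4 0.88, Slc38a2 0.013, Hspb7 3.14, Ephb2 0.86, Itga9 0.40, Itgbl1 0.95, Cacna1a 0.042, Scn7a 2.40 and Pde1a 0.35. In each of these WT replicate 3 is the lone WT library, and it had 3 counts of Hspb7 and 4 each of Scn7a and Slc38a4. It had no count of Gdf10, Cpxm2, Ccl20 and Nkx3-2, for which no value is given there.

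The labels do not say what a replicate number marks, and the main fit did not pair samples by it. Correlations between libraries of the same number cannot decide this, as the kind of library also differs between some of them. For WWP2-/- replicate 3 and WT replicate 3, Xist was above 1 CPM in the untreated library and not in the treated one. For WT replicate 4 the reverse held. A number thus did not always mark the same kind of library with and without TGFb1, and a replicate block joins libraries of both kinds. The correlations of deviations from the group means between WWP2-/- and WT libraries of the same number were −0.138, −0.293, 0.0841, 0.126 and −0.417 for replicates 1 to 5. With the number as a replicate block, 670 genes were called (644 of them among the 1238), 125 of the named genes and 120 of the list members. At depths of 47520759 to 61450631 counts, genes with under 3 counts in a group have only the counting intervals given with them.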
